A study of Mus musculus with 12 samples.

Results

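Cell cycle and DNA replication genes were chosen as a list of 41 genes that act in the G1 phase, in DNA replication or in mitosis. A gene counted as measured where a probe set of the array carried its symbol alone, and the brightest such probe set (by the average of the 12 arrays) stood for it. This gave 40 of the 41 genes, out of 12393 genes tested. Ccnb1 was not analysed here. The 40 genes comprised 9 G1 cyclins, kinases and regulators, 3 inhibitors of cyclin-dependent kinases (CDKs), 14 DNA replication genes and 14 mitosis genes.

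Expression was measured with Affymetrix arrays in mouse macrophages grown from bone marrow of the strain 129-SvEv-Tac, to ask how the response to LPS depends on p50, a subunit of the transcription factor NF-kB, and on interleukin 10 (IL-10). Both genotypes lacked Il10, so that the cells could not make IL-10 of their own. IL10-/- cells carried this deletion alone, and p50-/-IL10-/- cells also lacked the gene for p50 and p105. Marrow was cultured for 5 days with L-cell conditioned medium at 30% and fetal calf serum at 10%. The cells were scraped and replated the night before stimulation in a medium given only as DME-10, and the sources used here do not state its macrophage growth factor content. Cells of each genotype received no stimulus, lipopolysaccharide (LPS, from bacterial cell walls) at 1 ng/ml, or this LPS dose with IL-10 at 0.3 ng/ml, and RNA was taken at 4 h. There were 6 groups of 2 arrays, named biological replicates in their titles. The labels do not say that they came from separate animals, so a p-value here reflects only the spread among these arrays, which may be technical.

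Cells enter the cycle when D-type cyclins bind CDK4 and CDK6, which frees E2F factors to switch on genes for DNA synthesis. Cyclin E and CDK2 then start replication, for which the MCM proteins form the helicase that opens the DNA. Cyclin A, cyclin B and CDK1 drive the cell into mitosis, and inhibitors such as p21 (Cdkn1a) and p27 (Cdkn1b) hold these kinases back. Macrophages grown from marrow divide in response to macrophage colony stimulating factor, and LPS is known to stop this division. In bulk RNA a lower level can come from fewer cycling cells or from less RNA in each cell, and these cannot be told apart here.

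Promoters of replication and mitosis genes carry known sequence elements, which are described here by class. RefSeq promoters (GRCm38.p6; 250 bases before to 50 bases after the start) matched 32 of the 40 measured genes, with 36 promoters in all. On both strands, an E2F element (TTTCCCGC, TTTGGCGC or TTTCGCGC) was found in 35.7% of the 14 replication promoters and in 1.84% of all 32851 promoters. The cell cycle homology region, abbreviated CHR (TTTGAA), was found in 81.8% of the 11 mitosis promoters, in 14.3% of the replication promoters and in 17.9% of all promoters. The NF-Y element (CCAAT) was found in 90.9% of the mitosis promoters, in 78.6% of the replication promoters and in 37.4% of all promoters. The E-box that Myc binds (CACGTG) was found in 8.33% of the 36 promoters and in 7.15% of all promoters. The E2F element was also found in 9.09% of the mitosis promoters. Neither Cdkn1a promoter held any of the 4 elements. These matches are a description of letters and not of binding. The 250 bases before the start are printed for 5 genes on which the results turn. Mcm6, Mcm7 and Cdk1 fell with LPS, and Mki67 rose with LPS. Top2a was lower without p50 on the brighter of its probe sets. Of the pair of Mcm7 promoters, the one with more matches was chosen for printing. Capitals mark E2F, CHR and NF-Y elements, and 1 pair of E2F elements in Mcm6 overlaps.
Mcm6, chr1:128359706-128359955, minus strand: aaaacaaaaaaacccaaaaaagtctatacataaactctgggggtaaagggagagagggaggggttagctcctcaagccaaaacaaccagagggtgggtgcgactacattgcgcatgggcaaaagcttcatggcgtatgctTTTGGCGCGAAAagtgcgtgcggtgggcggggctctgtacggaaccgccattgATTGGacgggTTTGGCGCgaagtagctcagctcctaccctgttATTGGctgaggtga
Mcm7, chr5:138171884-138172133, minus strand: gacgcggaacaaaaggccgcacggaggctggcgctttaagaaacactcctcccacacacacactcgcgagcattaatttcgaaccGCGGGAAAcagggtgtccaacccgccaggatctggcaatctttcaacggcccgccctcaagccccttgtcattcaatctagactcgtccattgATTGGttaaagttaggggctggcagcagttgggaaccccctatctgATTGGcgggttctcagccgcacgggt
Cdk1, chr10:69352913-69353162, minus strand: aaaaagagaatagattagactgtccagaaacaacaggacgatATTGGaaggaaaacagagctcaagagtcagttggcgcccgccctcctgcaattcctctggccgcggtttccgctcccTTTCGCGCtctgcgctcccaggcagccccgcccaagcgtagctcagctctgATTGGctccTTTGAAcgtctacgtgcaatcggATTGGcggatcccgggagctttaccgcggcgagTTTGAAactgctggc
Top2a, chr11:99024190-99024439, minus strand: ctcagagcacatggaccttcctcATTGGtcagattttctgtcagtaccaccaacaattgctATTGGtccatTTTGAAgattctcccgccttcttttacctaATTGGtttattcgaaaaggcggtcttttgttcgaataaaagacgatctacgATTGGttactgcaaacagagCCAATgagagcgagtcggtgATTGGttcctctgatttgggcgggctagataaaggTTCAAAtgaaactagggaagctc
Mki67, chr7:135716380-135716629, minus strand: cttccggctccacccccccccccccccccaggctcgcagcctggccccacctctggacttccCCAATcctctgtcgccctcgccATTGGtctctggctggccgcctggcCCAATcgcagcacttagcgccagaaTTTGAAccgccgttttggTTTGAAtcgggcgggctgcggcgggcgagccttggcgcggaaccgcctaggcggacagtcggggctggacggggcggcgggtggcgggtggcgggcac
In these windows Mcm6 held 3 E2F and 2 NF-Y elements, Mcm7 held 1 E2F and 2 NF-Y elements, and Cdk1 held 1 E2F, 2 CHR and 3 NF-Y elements. Top2a held 2 CHR and 6 NF-Y elements and Mki67 held 2 CHR and 3 NF-Y elements. Mki67 and Top2a thus carried the same kinds of element.

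The authors deposited log2 expression values made by RMA, a method that gives all arrays a common distribution. Array medians lay between 6.92 and 6.96, and replicate arrays had correlations of 0.992 to 0.997. All 11 macrophage markers exceeded the lower quartile of the arrays (at most 5.94) in every group, with list means of 11.7 to 12.1. Of the 40 cell cycle genes, 7 stayed under that quartile in all groups (Ccne2, Cdc6, Tyms, Bub1, Aurkb, Kif11 and Kif20a). In some groups 7 more did so (Myc, Mcm5, Prim1, Rrm2, Ccnb2, Bub1b and Birc5). For all of these genes RMA compresses changes. The Birc5 and Myc means under that quartile were those of stimulated p50-/-IL10-/- cells, and the Rrm2 means were under it in all p50-/-IL10-/- groups. RMA values are not scaled to transcript length, so levels are compared within a gene and not between genes.

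Differences were tested with limma across all genes, and a gene was called at a Benjamini-Hochberg adjusted p under 0.05. LPS lowered 14 and raised 3 of the 40 genes in IL10-/- cells, beside 17.1% of all genes lower and 7.76% higher. Without p50, LPS lowered 15 and raised 3, beside 22.1% lower and 10.3% higher. Thus 35% and 37.5% of the cell cycle genes were called lower. The median LPS difference of the 40 genes was -0.23 and -0.27 in the 2 genotypes, where that of all genes was -0.01 in both. Of the called genes, 13 fell and 3 rose in both genotypes. These 2 comparisons share no array, and their differences correlated at r = 0.965 across the 40 genes and at r = 0.888 across all 12393 genes, as a description over genes and not over samples. Without the IL10-/- LPS array 1 the count in IL10-/- cells fell from 17 to 11. With arrays centred on their medians all genes shifted up by 0.09 and 0.13, and the share of higher calls among all calls moved from 31.3% to 50.3% and from 31.7% to 57.8%, while the cell cycle genes kept 11 lower and 3 higher in each genotype.

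LPS with IL-10, against no stimulus, gave 11 lower and 4 higher cell cycle genes in IL10-/- cells, beside 12.5% and 6.94% of all genes. In p50-/-IL10-/- cells it gave 15 lower and 5 higher, beside 21.2% and 16.7%. Centring moved the share of higher calls over all genes from 35.7% to 51.8% and from 44% to 59.7%. These comparisons share the unstimulated arrays with the LPS comparisons. The 15 calls became 9 when the IL10-/- array 1 of LPS with IL-10 was left out, and the 20 calls became 13 when the p50-/-IL10-/- array 2 was.

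IL-10, compared as LPS with IL-10 against LPS alone, changed few of these genes. This comparison shares the LPS arrays with that of LPS against no stimulus. In IL10-/- cells 4 were higher and 1 was lower, beside 3.35% and 2.82% of all genes, and in p50-/-IL10-/- cells 1 was higher and 0 were lower, beside 3.7% and 2.87%. At an unadjusted p under 0.05 the p50-/-IL10-/- counts were 7 higher and 2 lower. Leaving out the IL10-/- LPS array 1 or the IL10-/- array 2 of LPS with IL-10 left 3 of the 5 calls. The single call in p50-/-IL10-/- cells was lost without the LPS array 1 and without array 2 of LPS with IL-10, and also after centring, which moved the share of higher calls over all genes from 56.3% to 34.8%.

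Against IL10-/- cells, p50-/-IL10-/- cells had 0 higher and 3 lower cell cycle genes unstimulated, beside 1.26% and 1.31% of all genes. Under LPS they had 0 higher and 6 lower, beside 5.66% and 6.72%. Under LPS and IL-10 they had 1 higher and 9 lower, beside 7.58% and 10.4%. At an unadjusted p under 0.05 the counts were 1 higher and 17 lower unstimulated, and 1 higher and 16 lower under LPS. The unstimulated count fell to 0 without the p50-/-IL10-/- array 2. Under LPS it fell to 1 without the IL10-/- array 2, and to 2 without either p50-/-IL10-/- array. Under LPS and IL-10 it fell from 10 to 6 without the IL10-/- array 2, to 5 without the p50-/-IL10-/- array 1 and to 6 without array 2. The LPS response itself was called different between the genotypes for 0 of the 40 genes, beside 0.734% of all genes higher and 0.452% lower, with 0 higher and 1 lower at an unadjusted p under 0.05. The IL-10 effect was called different for 1 gene, Cdkn1a, beside 0.0968% higher and 0.0403% lower. Centring moved the share of higher calls over all genes in this last comparison from 70.6% to 60%.

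**Figure D1:**
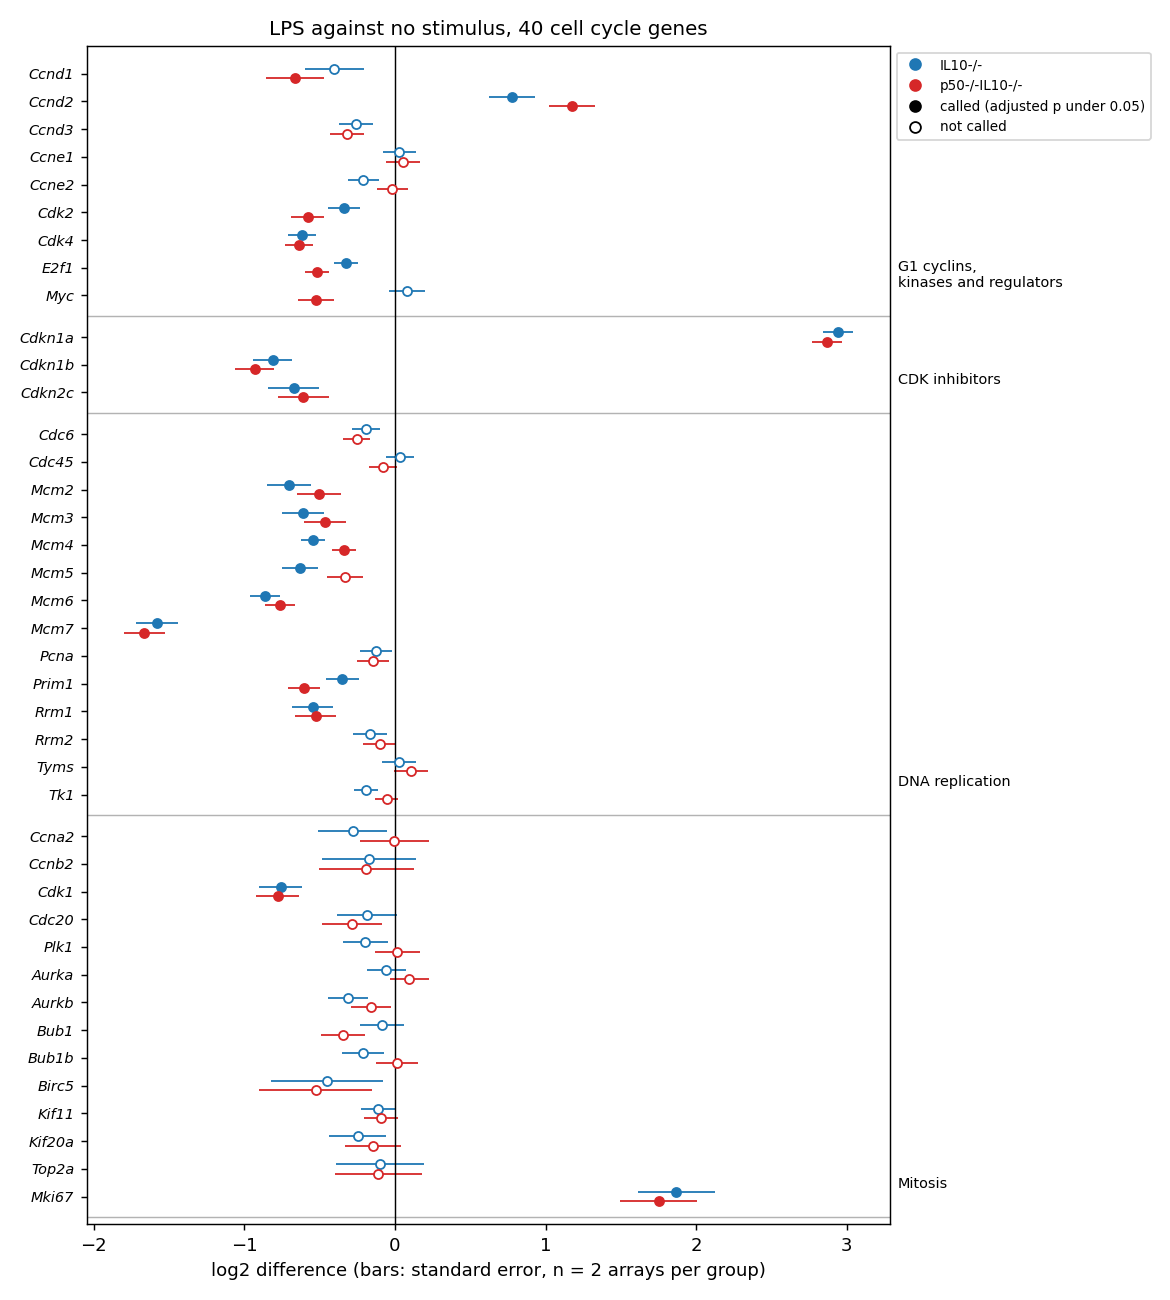
The log2 difference of LPS against no stimulus is plotted for each of the 40 genes with its standard error, by function, for IL10-/- (blue) and p50-/-IL10-/- cells (red), with filled points for called genes. The genes called higher in both genotypes are Cdkn1a, Mki67 and Ccnd2. Those called lower in both include 7 replication genes and Cdk1, and most mitosis genes are not called.

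Among the CDK inhibitors, Cdkn1a, which codes for p21, a brake on CDK2 and other cyclin kinases, gave the largest LPS difference of the 40 genes in both genotypes. In IL10-/- cells its log2 levels were 10.11 and 10.07 unstimulated, 13.03 and 13.03 under LPS, and 11.71 and 11.65 under LPS plus IL-10. The p50-/-IL10-/- levels were 10.24 and 10.59 unstimulated, 13.30 and 13.28 under LPS, and 13.18 and 13.18 under LPS plus IL-10. Levels with LPS alone lay above all unstimulated arrays in both genotypes, and with IL-10 added the IL10-/- arrays lay more than 1 log2 unit lower, while the p50-/-IL10-/- arrays lay just below those with LPS alone. LPS raised Cdkn1a by 2.94 ± 0.10 (SE, n = 2 against 2, 7.68-fold, adjusted p = 3.8e-08) and by 2.87 ± 0.10 (7.31-fold, adjusted p = 3.4e-08). LPS with IL-10 raised it against no stimulus by 1.59 ± 0.10 in IL10-/- cells (3.01-fold, adjusted p = 2.7e-06). In p50-/-IL10-/- cells this difference was 2.76 ± 0.10 (6.77-fold, adjusted p = 8.6e-08).

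IL-10 lowered Cdkn1a by -1.35 ± 0.10 in IL10-/- cells (2.55-fold, adjusted p = 2.8e-05). Without p50 the difference was -0.11 ± 0.10 (adjusted p = 0.547). The IL-10 effects differed between the genotypes by 1.24 ± 0.14 (adjusted p = 0.00882). The difference stayed between 1.21 and 1.27 in 8 fits that each left out 1 array, but the call was lost without either p50-/-IL10-/- array of LPS with IL-10, with a highest adjusted p of 0.0705. The second probe set of Cdkn1a gave 1.76 ± 0.18 for the same contrast. With LPS and IL-10, Cdkn1a was 1.496 ± 0.10 higher without p50 (2.82-fold, adjusted p = 1.7e-05), and unstimulated and with LPS the genotype differences of 0.33 and 0.25 were not called.

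Cdkn1b, which codes for p27, went the other way. Its IL10-/- levels were 8.77 and 8.87 unstimulated, 7.95 and 8.07 under LPS, and 8.59 and 8.75 under LPS plus IL-10. Its p50-/-IL10-/- levels were 8.48 and 8.44 unstimulated, 7.31 and 7.75 under LPS, and 7.90 and 7.74 under LPS plus IL-10. In each genotype both LPS arrays lay below both unstimulated arrays. LPS lowered it by -0.81 ± 0.13 (adjusted p = 0.00104) and by -0.93 ± 0.13 (adjusted p = 0.000287). IL-10 raised it by 0.66 ± 0.13 in IL10-/- cells (adjusted p = 0.0123), a call lost in 2 of 4 fits that left out 1 array. The IL-10 difference was 0.29 ± 0.13 in p50-/-IL10-/- cells, and the difference between the genotypes was not called (-0.38 ± 0.18, adjusted p = 0.459).

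A second, noisier probe set of Cdkn1b gave LPS differences of -2.25 ± 0.71 and -0.22 ± 0.71, and averaging both sets ended the LPS call in p50-/-IL10-/- cells (adjusted p = 0.2745), the IL-10 call (adjusted p = 0.5641) and the genotype calls of this gene. Cdkn2c, which codes for p18, an inhibitor of CDK4 and CDK6, fell with LPS by -0.67 ± 0.17 and -0.61 ± 0.17. Its arrays ran from 8.99 to 9.54 unstimulated and from 8.40 to 8.98 with LPS, and 2 of 4 fits without 1 array lost the call in each genotype. LPS thus raised 1 of the 3 inhibitors and lowered the others in both genotypes.

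**Figure D2:**
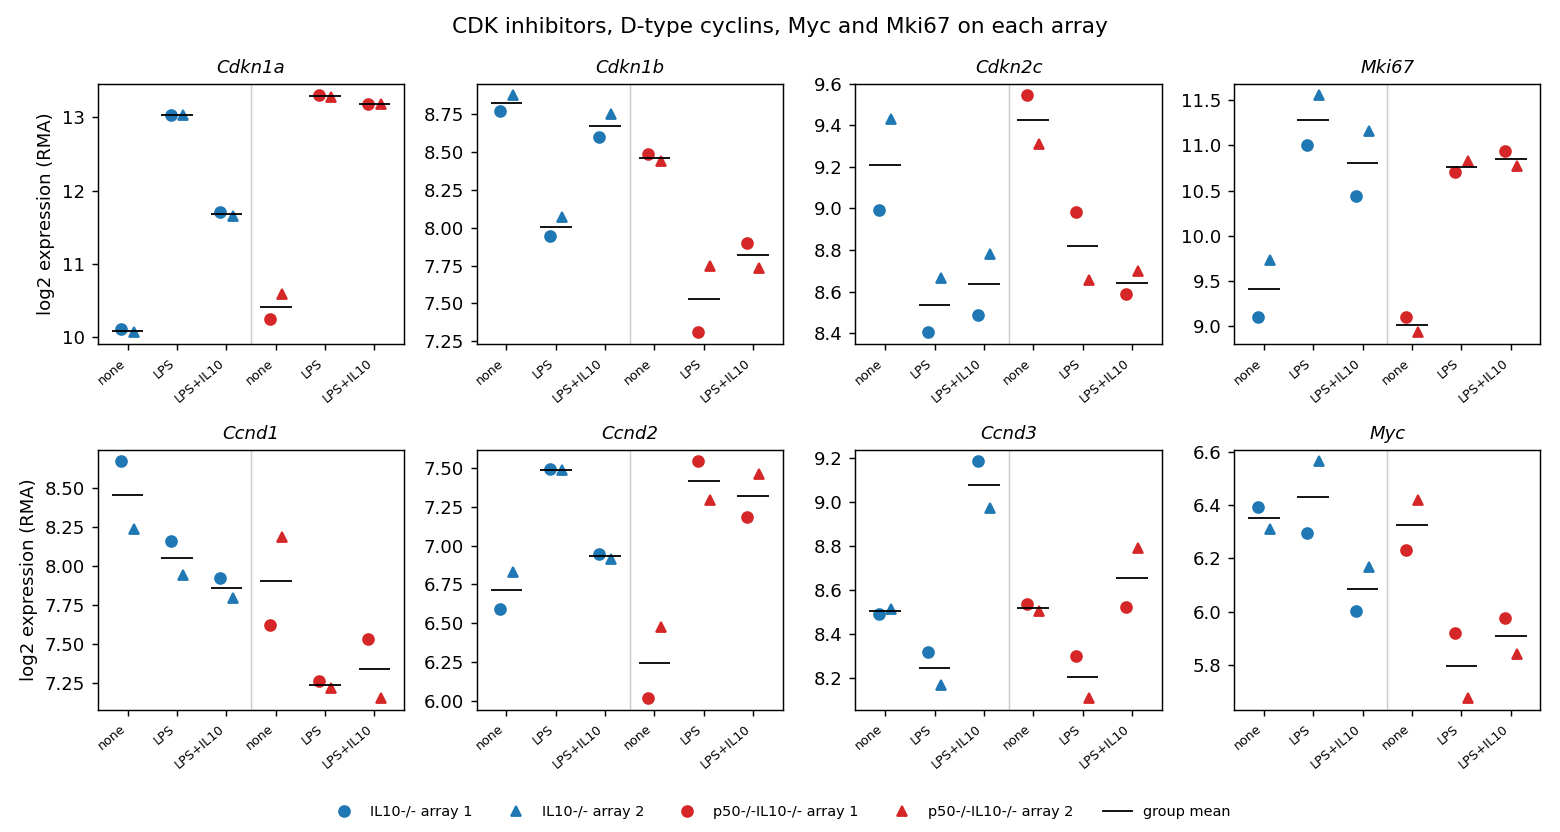
Log2 RMA levels of 8 genes on each of the 12 arrays are plotted by stimulus, with IL10-/- in blue, p50-/-IL10-/- in red, circles for array 1, triangles for array 2 and bars for group means (n = 2). Cdkn1a rises with LPS to about the same level in both genotypes. With IL-10 it stays near that level in p50-/-IL10-/- cells, at 13.18. In IL10-/- cells, at 11.71 and 11.65, it lies between the unstimulated and the LPS levels.

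The D-type cyclins, which answer growth signals and partner CDK4 and CDK6 at the start of the cycle, were Ccnd1, Ccnd2 and Ccnd3. Ccnd1 levels were 8.67 and 8.24 unstimulated, 8.16 and 7.94 under LPS, and 7.92 and 7.79 under LPS plus IL-10 in IL10-/- cells. The p50-/-IL10-/- levels were 7.62 and 8.18, then 7.26 and 7.21, then 7.53 and 7.15. In each stimulus both p50-/-IL10-/- arrays lay below both IL10-/- arrays. The LPS difference of Ccnd1 was -0.40 ± 0.20 in IL10-/- cells (adjusted p = 0.172) and -0.66 ± 0.20 in p50-/-IL10-/- cells (adjusted p = 0.0237), a call that held in 1 of 4 fits without 1 array. With LPS, Ccnd1 was lower without p50 by -0.81 ± 0.20 (adjusted p = 0.0221), a call that held in 0 of 4 such fits.

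Ccnd2 levels were 6.59 and 6.83 unstimulated, 7.49 and 7.49 under LPS, and 6.95 and 6.92 under LPS plus IL-10 in IL10-/- cells. The p50-/-IL10-/- levels were 6.02 and 6.47, then 7.54 and 7.30, then 7.18 and 7.46. LPS arrays lay above unstimulated arrays in both genotypes. LPS raised Ccnd2 by 0.78 ± 0.15 (1.71-fold, adjusted p = 0.0037) and by 1.17 ± 0.15 (2.26-fold, adjusted p = 0.000176). With IL-10 added to LPS the difference was -0.56 ± 0.15 in IL10-/- cells (adjusted p = 0.0607) and -0.10 ± 0.15 in p50-/-IL10-/- cells, and neither was called.

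Ccnd3 was the cyclin that rose with IL-10. Its IL10-/- levels were 8.49 and 8.52 unstimulated, 8.32 and 8.17 under LPS, and 9.19 and 8.97 under LPS plus IL-10. Its p50-/-IL10-/- levels were 8.54 and 8.50, then 8.30 and 8.11, then 8.52 and 8.79. Both arrays with IL-10 lay above both LPS arrays in each genotype. IL-10 raised Ccnd3 by 0.83 ± 0.11 in IL10-/- cells (adjusted p = 0.00143) and by 0.45 ± 0.11 in p50-/-IL10-/- cells (adjusted p = 0.0414), the latter being the call lost after centring and in 3 of 4 fits without 1 array. The difference between these effects was not called (-0.38 ± 0.16, adjusted p = 0.399).

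Myc, a transcription factor of growth genes, had a single probe set, with a name ending in _a_at. Names ending in _a_at, _s_at or _x_at are called shared-probe names here. Whether such probes are shared with other genes or only among transcripts of the same gene was not examined. Its levels were 6.39 and 6.31 unstimulated, 6.29 and 6.56 under LPS, and 6.00 and 6.17 under LPS plus IL-10 in IL10-/- cells. The p50-/-IL10-/- levels were 6.23 and 6.42, then 5.92 and 5.68, then 5.98 and 5.84. With LPS the genotypes did not overlap, while unstimulated they did. IL-10 with LPS also left them without overlap. The LPS difference of Myc was 0.08 ± 0.12 in IL10-/- cells and -0.53 ± 0.12 in p50-/-IL10-/- cells (adjusted p = 0.00645). With LPS it was lower without p50 by -0.63 ± 0.12 (adjusted p = 0.00733). Each of these calls held in 2 of 4 fits without 1 array, and the genotype call was lost with only the groups compared (adjusted p = 0.0584). The difference between the LPS responses, -0.60 ± 0.17, was not called (adjusted p = 0.174).

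Of the other G1 genes, Cdk4, the kinase of D-type cyclins, fell with LPS by -0.62 ± 0.09 and -0.64 ± 0.09. E2f1, an activator of replication genes, fell by -0.32 ± 0.08 and -0.52 ± 0.08, and Cdk2, the kinase of cyclin E, fell by -0.34 ± 0.11 and -0.58 ± 0.11. In IL10-/- cells the Cdk2 and E2f1 calls did not hold in all fits without 1 array, nor after centring, with adjusted p of 0.112 and 0.0535. With probe sets of shared-probe names left out, the LPS difference of E2f1 in p50-/-IL10-/- cells was -0.162 (adjusted p = 0.241). The cyclin E genes Ccne1 and Ccne2 gave LPS differences of 0.03 and -0.21 in IL10-/- cells and of 0.05 and -0.02 in p50-/-IL10-/- cells, and none was called.

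Of 25 other measured G1/S regulators, 2 rose (8%) and 4 fell (16%) with LPS in IL10-/- cells, near the 7.76% and 17.1% of all genes. Without p50, 7 rose and 7 fell (28% each), beside 10.3% and 22.1%. The shares over all genes for LPS are the same for each list that follows. Skp2, the ubiquitin ligase subunit that marks p27 for destruction, fell by -2.11 ± 0.29 and -2.65 ± 0.29. E2f8, a repressor of E2F target genes, rose in IL10-/- cells by 0.93 ± 0.11 and in p50-/-IL10-/- cells by 2.55 ± 0.11. Rbl1, which codes for the pocket protein p107, rose by 2.32 ± 0.22 in p50-/-IL10-/- cells. The LPS responses of E2f8 (1.62 ± 0.16), Rbl1 (1.65 ± 0.31) and Ccng2 (1.26 ± 0.20) were called different between the genotypes, with the more positive difference in p50-/-IL10-/- cells for all 3. IL-10 lowered E2f8 by -0.96 ± 0.11 and -0.89 ± 0.11, and Ccng2 by -1.16 ± 0.14 and -1.45 ± 0.14.

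Of 11 Myc partners and antagonists, 4 fell with LPS in each genotype, while 1 rose in IL10-/- cells and 2 rose in p50-/-IL10-/- cells. Mxd4, Mnt and Mxi1, which compete with Myc for its partner Max, fell by -1.81 ± 0.14, -1.75 ± 0.17 and -1.47 ± 0.12 in IL10-/- cells. Without p50 they fell by -1.59 ± 0.14, -2.31 ± 0.17 and -1.25 ± 0.12. Of 20 Myc-linked growth genes, 2 rose and 0 fell with LPS in IL10-/- cells (3 and 2 at an unadjusted p under 0.05), and 1 rose and 11 fell in p50-/-IL10-/- cells. With LPS, 9 of them were lower and 1 was higher without p50, beside 6.72% and 5.66% of all genes, with Odc1, the first enzyme of polyamine synthesis, at -1.24 ± 0.15. Of these 20 genes, 0 were called different in their LPS response between the genotypes (5 lower and 1 higher at an unadjusted p under 0.05).

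Of 20 p53 targets and damage response genes, to which Cdkn1a also belongs by function, 4 rose and 5 fell with LPS in IL10-/- cells, and 6 rose and 7 fell in p50-/-IL10-/- cells. Gadd45b, a stress-response gene, rose by 2.31 ± 0.13 and 1.68 ± 0.13, while Trp53inp1 fell by -1.99 ± 0.17 and -1.82 ± 0.17. With LPS and IL-10, Mdm2, the ubiquitin ligase of p53, was higher without p50 by 1.03 ± 0.13. Of 16 genes linked to quiescence, 1 rose and 4 fell with LPS in IL10-/- cells and 2 rose and 6 fell in p50-/-IL10-/- cells. Foxo3, a factor active in resting cells, fell by -1.51 ± 0.17 and -1.72 ± 0.17. Of 9 growth factors and receptors of macrophages, 1 rose with LPS in each genotype, namely Csf1, which codes for macrophage colony stimulating factor, by 1.83 ± 0.13 and 2.73 ± 0.13, and IL-10 lowered it by -1.65 ± 0.13 and -1.38 ± 0.13.

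Many DNA replication genes fell with LPS. Of the 14, 8 fell in IL10-/- cells and 7 in p50-/-IL10-/- cells, and 0 rose in either at an adjusted or an unadjusted p under 0.05. The medians of the 14 LPS differences were -0.45 and -0.33. Of the 6 subunits of the MCM helicase, all fell in IL10-/- cells and 5 fell in p50-/-IL10-/- cells.

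Mcm7 changed most. Its IL10-/- levels were 9.69 and 9.49 unstimulated, 7.89 and 8.13 under LPS, and 8.21 and 8.24 under LPS plus IL-10. Its p50-/-IL10-/- levels were 8.70 and 8.72, then 6.91 and 7.18, then 7.32 and 6.94. Unstimulated arrays lay above stimulated ones in each genotype, and every p50-/-IL10-/- array lay below both IL10-/- arrays of the same stimulus. LPS lowered Mcm7 by -1.58 ± 0.14 (2.99-fold, adjusted p = 1.7e-05) and by -1.66 ± 0.14 (3.17-fold, adjusted p = 7.9e-06). All 4 probe sets of Mcm7 have shared-probe names. The other 3 fell with LPS by -0.62, -0.84 and -0.69 in IL10-/- cells and by -0.35, -0.98 and -0.82 in p50-/-IL10-/- cells. The size of the Mcm7 difference thus depends on the probe set. RefSeq gives Mcm7 a pair of promoters. The one printed above, chosen because it had more matches, held E2F and NF-Y elements, and the other held 0 E2F elements and 1 NF-Y element.

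Mcm6 levels were 8.15 and 8.11 unstimulated, 7.36 and 7.18 under LPS, and 7.20 and 7.001 under LPS plus IL-10 in IL10-/- cells. The p50-/-IL10-/- levels were 7.81 and 8.01, then 7.16 and 7.14, then 6.89 and 6.85. The levels with LPS lay below every unstimulated array of the same genotype, and those with IL-10 lay lower still in p50-/-IL10-/- cells. LPS lowered Mcm6 by -0.86 ± 0.10 (1.82-fold, adjusted p = 0.000126) and by -0.76 ± 0.10 (1.70-fold, adjusted p = 0.000173). LPS with IL-10 lowered it by -1.03 ± 0.10 and -1.04 ± 0.10 against no stimulus.

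The other MCM subunits fell by less. Mcm2 fell by -0.71 ± 0.15 and -0.50 ± 0.15, and Mcm3 by -0.61 ± 0.14 and -0.46 ± 0.14. Mcm5 fell by -0.63 ± 0.12 in IL10-/- cells, and its difference in p50-/-IL10-/- cells was -0.33 ± 0.12 and not called. Mcm4 fell by -0.55 ± 0.08 and -0.34 ± 0.08. Mcm4 was the subunit called higher with IL-10, by 0.37 ± 0.08 in IL10-/- cells (adjusted p = 0.02), beside 0.30 ± 0.08 in p50-/-IL10-/- cells, which was not called (adjusted p = 0.0503). The IL-10 call of Mcm4 held in 1 of 4 fits without 1 array. With probe sets of shared-probe names left out, Mcm3 gave -0.118 (adjusted p = 0.568) and -0.146 (adjusted p = 0.439), so its call depends on the probe set. The Mcm3 call in IL10-/- cells held in 2 of 4 fits without 1 array. In p50-/-IL10-/- cells the LPS calls of Mcm2, Mcm3 and Mcm4 were lost after centring, with adjusted p of 0.0725, 0.0858 and 0.06, and in some of the fits without 1 array.

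Genes of nucleotide supply and DNA synthesis were divided. Rrm1, the large subunit of ribonucleotide reductase, fell with LPS by -0.55 ± 0.14 and -0.53 ± 0.14, and Prim1, the small primase subunit, fell by -0.35 ± 0.11 and -0.60 ± 0.11. The Rrm1 calls held in 2 of 4 fits without 1 array in each genotype. So did the Prim1 call in IL10-/- cells, where its difference fell to -0.191 and the call was also lost after centring (adjusted p = 0.0969). Pcna, the sliding clamp of DNA polymerases, ranged from 11.79 to 12.29 over all arrays, with LPS differences of -0.12 (95% confidence interval -0.36 to 0.11) and -0.15 (-0.38 to 0.09). Rrm2, Tyms, Cdc45 and Cdc6 were not called with LPS in either genotype, and Tyms and Cdc6 are among the dim genes.

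Tk1, the thymidine kinase of dividing cells, was called lower without p50 at each of the 3 conditions and was not called with LPS. The genotype call held in 3 of 4 fits without 1 array unstimulated, in 1 of 4 under LPS and in 4 of 4 when IL-10 was added. Its IL10-/- arrays ran from 7.16 to 7.71 and its p50-/-IL10-/- arrays from 6.76 to 7.02, without overlap. It was lower without p50 by -0.51 ± 0.08 unstimulated (adjusted p = 0.00594), -0.37 ± 0.08 under LPS (adjusted p = 0.0108) and -0.68 ± 0.08 when IL-10 was added (adjusted p = 0.000356). IL-10 raised it by 0.51 ± 0.08 in IL10-/- cells (adjusted p = 0.00304). The difference was 0.21 in p50-/-IL10-/- cells, and the effects were not called different (-0.30 ± 0.11, adjusted p = 0.355).

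**Figure D3:**
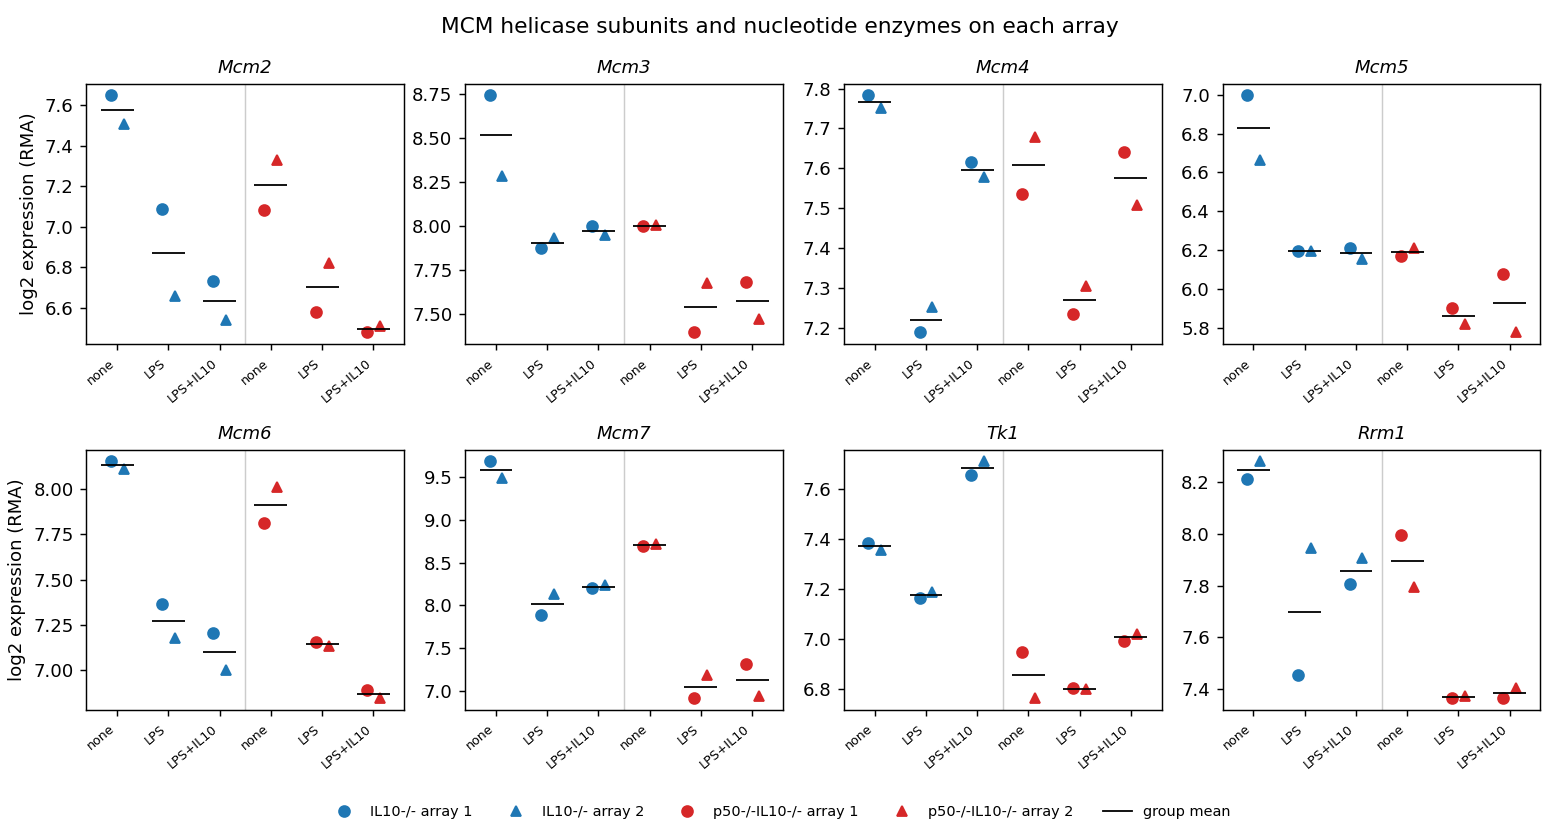
Log2 RMA levels of the 6 MCM subunits, Tk1 and Rrm1 are plotted on each array, with colours, symbols and bars as for the CDK inhibitors. The group mean of each MCM subunit is highest in unstimulated cells of its genotype, Mcm4 returns to 7.61 and 7.58 with IL-10 in IL10-/- cells, and Tk1 does not overlap between the genotypes.

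Replication genes outside the 14 were also compared. Of 42 measured, 16 fell and 3 rose with LPS in IL10-/- cells, and 21 fell and 6 rose in p50-/-IL10-/- cells. Gmnn, which codes for geminin, the inhibitor of replication licensing, fell by -1.86 ± 0.17 and -2.19 ± 0.17. Dnmt1, the maintenance DNA methyltransferase, fell by -1.22 ± 0.10 and -1.36 ± 0.10. Cdt1, the licensing factor that geminin blocks, fell by -2.15 ± 0.18 in p50-/-IL10-/- cells, and its LPS response was called different between the genotypes by -1.32 ± 0.25. Dck, a kinase that salvages nucleosides, rose by 1.20 ± 0.34 in IL10-/- cells.

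Few mitosis genes were called with LPS. Of the 14, 1 rose and 1 fell in each genotype, and the medians of their LPS differences were -0.19 and -0.13. Cdk1, the kinase that drives mitosis, was the one that fell, and Mki67, which codes for the Ki-67 protein of dividing cells, was the one that rose.

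Mki67 levels were 9.10 and 9.73 unstimulated, 11.01 and 11.55 under LPS, and 10.44 and 11.16 under LPS plus IL-10 in IL10-/- cells. Without p50 they were 9.10 and 8.93, then 10.71 and 10.83, then 10.94 and 10.77. Stimulated arrays lay above unstimulated ones in both genotypes. The genotypes overlapped with LPS and IL-10 and met unstimulated, where one array of each stood at 9.10. Under LPS the p50-/-IL10-/- arrays were lower, and no genotype difference was called. LPS raised Mki67 by 1.87 ± 0.26 (3.65-fold, adjusted p = 0.000366) and by 1.75 ± 0.26 (3.36-fold, adjusted p = 0.000373). IL-10 added to LPS gave -0.48 ± 0.26 (adjusted p = 0.395) and 0.09 ± 0.26, neither called. The gene has a single probe set here, so no other probe set measured this rise.

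Cdk1 levels were 9.03 and 9.28 unstimulated, 8.28 and 8.51 under LPS, and 8.12 and 8.51 under LPS plus IL-10 in IL10-/- cells. Without p50 they were 8.65 and 8.57, then 7.90 and 7.76, then 7.39 and 7.61. Unstimulated arrays lay above stimulated ones, and p50-/-IL10-/- arrays lay below IL10-/- arrays at each stimulus. LPS lowered Cdk1 by -0.76 ± 0.14 (adjusted p = 0.00285) and by -0.78 ± 0.14 (adjusted p = 0.00171). LPS with IL-10 lowered it by -0.84 ± 0.14 and -1.11 ± 0.14 against no stimulus. It was lower without p50 by -0.56 ± 0.14 under LPS (adjusted p = 0.0281) and by -0.81 ± 0.14 when IL-10 was added (adjusted p = 0.0039). The first of these genotype calls held in 1 of 4 fits without 1 array (highest adjusted p = 0.155), the other in 4 of 4.

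The other 12 mitosis genes had LPS differences of -0.45 to -0.06 with p50 present and of -0.53 to 0.10 without p50, and none was called. They include the cyclins Ccna2 and Ccnb2, the kinases Plk1, Aurka and Aurkb, the checkpoint genes Bub1 and Bub1b, and Cdc20, which activates the ligase that ends mitosis. Their intervals are wide, as for Birc5, which codes for survivin (-0.45, 95% confidence interval -1.28 to 0.38 in IL10-/- cells).

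The spread behind these intervals followed the array number. In IL10-/- cells all 14 mitosis genes were higher on array 2 than on array 1 in each of the 3 conditions, by medians of 0.35, 0.36 and 0.38. Over all genes, 21.9% were higher on array 2 in all 3 IL10-/- groups. In p50-/-IL10-/- cells array 2 was higher for 3, 5 and 8 of the 14 mitosis genes, beside 56.5%, 48.3% and 49% of all genes. Compared within array numbers, 11 of the 12 mitosis genes other than Cdk1 and Mki67 were lower with LPS on both numbers in IL10-/- cells, as were 39% of all genes, and 6 of 12 in p50-/-IL10-/- cells, beside 41.8%. Of 48 other mitosis genes, 37, 39 and 41 were higher on array 2 in the IL10-/- groups, by medians of 0.17 to 0.21. Taken 1 group at a time, 54.7%, 51.5% and 48.3% of all genes were higher on array 2 there. In the other classes 3 of 14 replication genes, 3 of 9 G1 genes and 2 of 3 inhibitors were higher on array 2 in all 3 IL10-/- groups.

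Some stromal markers moved with the same arrays. Dcn, a matrix proteoglycan of connective tissue cells, averaged 7.22 on the IL10-/- arrays 1 and 8.08 on the IL10-/- arrays 2, and Col3a1 averaged 5.62 and 6.54. The mean of the 7 stromal markers ran from 6.43 to 6.58 on the IL10-/- arrays 1, from 6.82 to 6.97 on the IL10-/- arrays 2, and from 5.94 to 6.29 on the p50-/-IL10-/- arrays. Col1a1, a defining marker, stayed at 5.45 to 5.71 on all arrays, under the lower quartile. Pdgfra averaged 6.03 on the IL10-/- arrays 1 and 5.98 on the IL10-/- arrays 2, and Pdgfrb averaged 6.74 and 6.88. The highest Pdgfrb level, 7.44, was on a p50-/-IL10-/- array. Neutrophil and myeloid progenitor markers, with means of 7.43 to 7.61 in IL10-/- cells, were 7.02 to 7.18 in p50-/-IL10-/- cells. S100a8, a neutrophil protein, lay between 11.10 and 11.47 on IL10-/- arrays and between 9.99 and 10.50 on p50-/-IL10-/- arrays. Ctsg, Cd34, Kit, Myb and Flt3 of this list overlapped between the genotypes, and its other markers were lower on all p50-/-IL10-/- arrays. Flt3 lay between 7.14 and 7.32 on IL10-/- arrays and between 7.19 and 7.49 on p50-/-IL10-/- arrays. Without p50, 2, 3 and 2 of the 7 stromal markers and 6, 8 and 5 of the 13 neutrophil and progenitor markers were called lower across the 3 conditions, beside 1.31%, 6.72% and 10.4% of all genes. Called higher were 1 stromal marker with LPS and 1 neutrophil or progenitor marker with IL-10 added, beside 5.66% and 7.58% of all genes. Their part in the genotype differences of cell cycle genes was not tested.

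**Figure D4:**
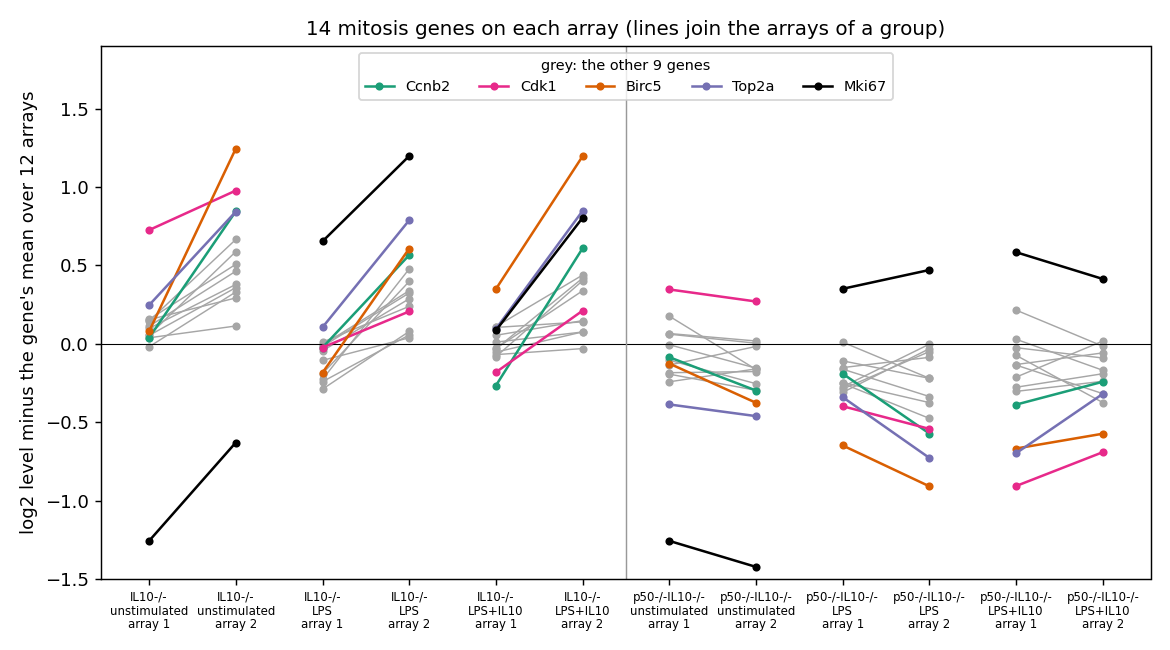
The log2 level of each of the 14 mitosis genes minus its own mean over the 12 arrays is plotted by array, with lines joining arrays 1 and 2 of a group and 5 genes in colour. All 14 lines rise from array 1 to array 2 in the 3 IL10-/- groups, while 3, 5 and 8 of 14 rise in the p50-/-IL10-/- groups, and Mki67 is the gene that steps up with LPS.

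Few mitosis genes were called lower without p50 at a single condition, although the medians of the 14 genotype differences were -0.46 unstimulated, -0.42 under LPS and -0.39 when IL-10 was added. The medians over all genes were -0.01, -0.02 and 0.04. At single stimuli 0, 1 and 3 of the 14 were called lower, beside 1.31%, 6.72% and 10.4% of all genes. The 3 called with LPS and IL-10 were Cdk1, Birc5 and Top2a. At an unadjusted p under 0.05 the counts of lower genes were 7, 5 and 6.

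Birc5 levels were 6.57 and 7.74 unstimulated, 6.31 and 7.10 under LPS, and 6.84 and 7.69 under LPS plus IL-10 in IL10-/- cells. Without p50 they were 6.37 and 6.12, then 5.85 and 5.59, then 5.83 and 5.92. The genotypes did not overlap within a stimulus, and the IL10-/- arrays of a group differed widely. With LPS and IL-10 Birc5 was lower without p50 by -1.39 ± 0.37 (2.63-fold, adjusted p = 0.0277). The call held in 1 of 4 fits without 1 array, and without the IL10-/- array 2 the difference was -0.97.

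Top2a, the topoisomerase that untangles chromosomes, ran from 7.38 to 8.13 over the 6 IL10-/- arrays and from 6.55 to 6.96 over the 6 p50-/-IL10-/- arrays. Its genotype difference with LPS and IL-10 was -0.98 ± 0.29 (adjusted p = 0.0412), and it held in 1 of 4 fits without 1 array. A dimmer second probe set of Top2a gave -0.08 ± 0.14 for this difference. Top2a and Plk1 of the mitosis genes, with Tk1 and Rrm2 of the replication genes, had all 6 p50-/-IL10-/- arrays below all 6 IL10-/- arrays, as had 1.82% of all genes. Lower levels without overlap at each of the 3 conditions were found for 6 of 14 mitosis genes, 7 of 14 replication genes, 2 of 9 G1 genes and 1 of 3 inhibitors, against 9% of all genes.

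An average genotype difference over the 3 conditions, added after the values were seen, called 22 of the 40 genes lower and 1 higher without p50, beside 15.1% and 10.6% of all genes. The 22 were 10 of 14 mitosis genes, 7 of 14 replication genes, 4 of 9 G1 genes and Cdkn1b, and the higher gene was Cdkn1a. This fit treats the arrays of a genotype as independent. With arrays of the same genotype and number averaged first, so that 2 values stood against 2, 10 genes were lower and Cdkn1a was higher, beside 8.87% and 6.92% of all genes. In that fit Mcm7 was lower by -0.98 ± 0.05 (adjusted p = 0.000964), Tk1 by -0.52 ± 0.05 (adjusted p = 0.00454), Cdkn1b by -0.56 ± 0.06 (adjusted p = 0.00751), Ccnd1 by -0.63 ± 0.09 (adjusted p = 0.0137) and Cdk1 by -0.64 ± 0.10 (adjusted p = 0.0155). Of the mitosis genes only Cdk1 and Top2a were called there, and Birc5, at -1.10 ± 0.29, was not (adjusted p = 0.0617). With shared-probe names left out, Top2a gave an average difference of -0.144 ± 0.08 (limma, adjusted p = 0.248). Leaving out the 3 IL10-/- arrays numbered 2 shrank the average differences of Ccna2, Ccnb2, Cdc20, Aurka and Bub1b. They became -0.205, -0.212, -0.234, -0.165 and -0.149, from -0.484, -0.591, -0.445, -0.268 and -0.27 with all arrays. No called difference reversed.

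Mitosis genes outside the 14 were also compared. Of 48 measured, 10 were lower and 5 higher without p50 on average, with a median of -0.09. These are 20.8% and 10.4%, beside 15.1% and 10.6% of all genes. Incenp, a partner of Aurora B, was lower by -1.44 ± 0.08, and Mad2l1, a spindle checkpoint gene, was higher by 0.67 ± 0.08. With LPS, 12 of the 48 fell and 1 rose in IL10-/- cells, and 12 fell and 6 rose in p50-/-IL10-/- cells. Cdc25b, a phosphatase that activates CDK1, fell by -1.65 ± 0.19 and -1.79 ± 0.19, and Cenpa, the centromere histone, fell by -1.53 ± 0.31 in IL10-/- cells. The LPS responses of Incenp (-1.53 ± 0.20) and Mad2l1 (1.09 ± 0.19) were called different between the genotypes.

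**Figure D5:**
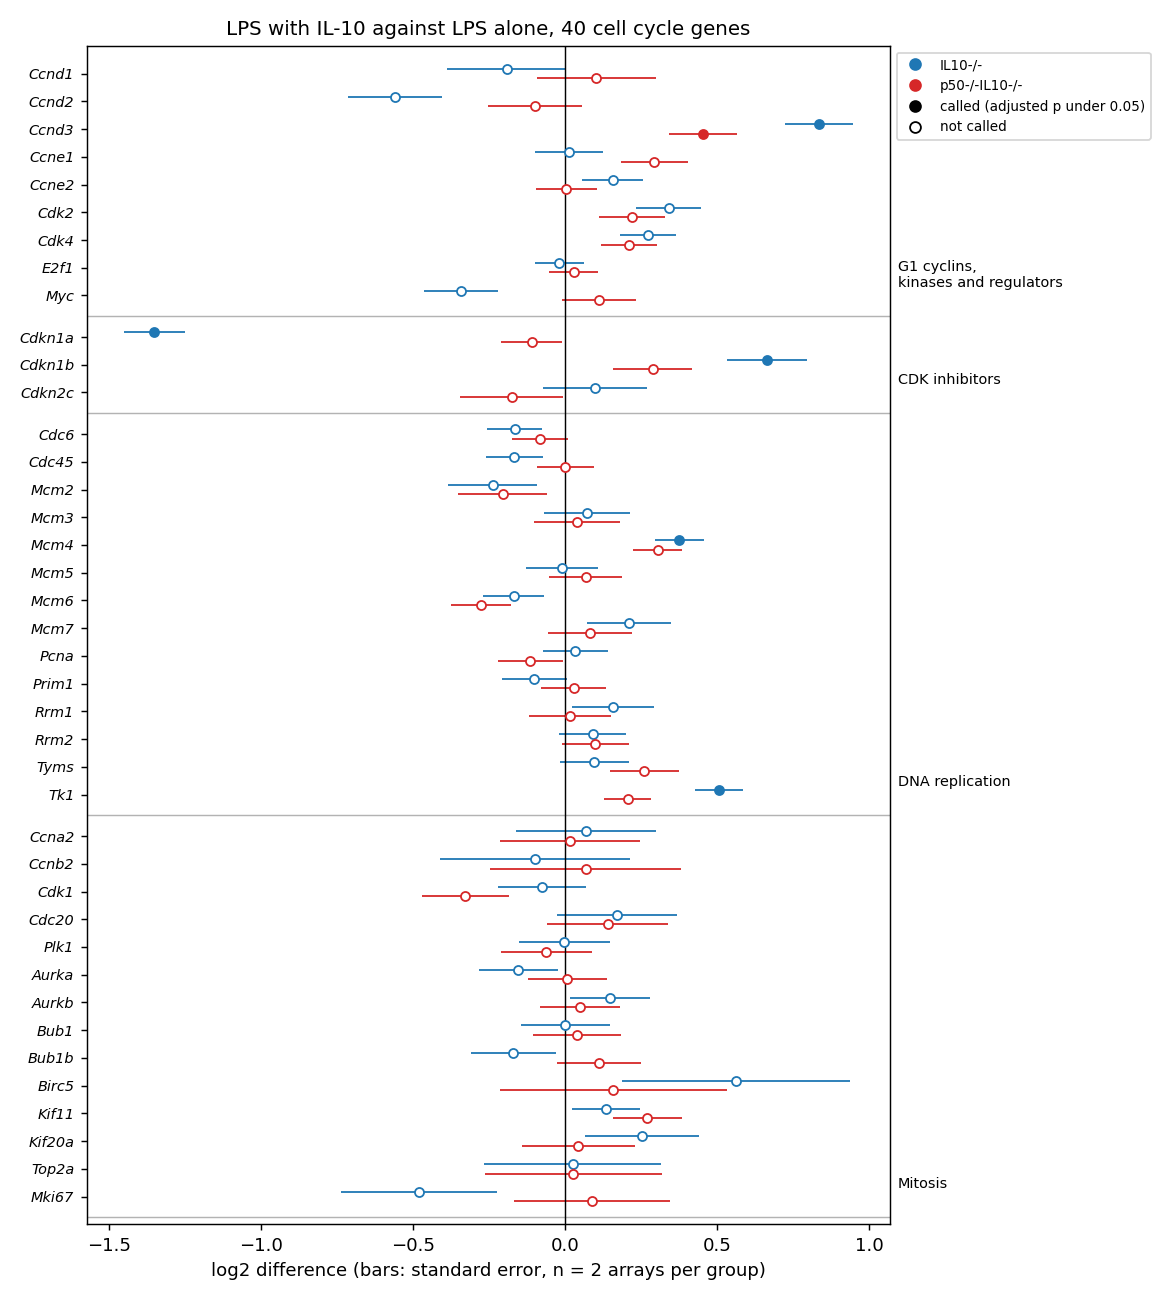
The log2 difference of LPS with IL-10 against LPS alone is plotted for each of the 40 genes with its standard error, by function, for IL10-/- (blue) and p50-/-IL10-/- cells (red), with filled points for called genes. Filled points are Ccnd3 in both genotypes and Cdkn1a, Cdkn1b, Mcm4 and Tk1 in IL10-/- cells, and Cdkn1a shows the widest gap between the genotypes, -1.35 against -0.11.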

How the data were processed

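The authors deposited log2 expression values of 22690 probe sets on 12 arrays, made with RMA per the submitters' processing notes; those notes list limma too, and no versions. After 64 control probe sets, those with 1 gene symbol were kept (20380), and the probe set with the highest mean stood for each of 12393 genes. Group means were fitted with limma 3.58.1 in R 4.3.3 (6 residual degrees of freedom), and 11 contrasts and 1 added contrast were tested, two-sided, with Benjamini-Hochberg adjustment over all genes. The precision is limited by 2 arrays per group, and the median standard error of a difference was 0.0998.

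The 41 genes, their groups, and the pathway and marker lists were chosen with earlier results of these data known. Every array's value is given for genes with a called difference of at least 1 log2 and for Myc, the D-type cyclins, Cdkn1a, Cdkn1b and Mki67. Of each pathway list, up to 3 called genes with the largest differences per contrast could be named. Elements were matched in RefSeq promoters of GRCm38.p6, and the probe annotation's build is not given. The scripts were tested on simulated data. Alternatives were the mean of all probe sets, shared-probe names left out, a replicate block, fewer groups, centring, dim genes left out, an intensity trend and leaving out arrays.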

Additional observations from a re-analysis of the deposited data

Results flagged for a closer look

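Of the 40 genes, Cdkn1a was singled out because its IL-10 effect differed between the genotypes by a test of the difference itself. IL-10 added to LPS gave a log2 difference of -1.35 ± 0.10 with p50 present and of -0.11 ± 0.10 without it. The difference between these effects was 1.24 ± 0.14 (SE, n = 2 arrays per group, limma, adjusted p = 0.00882). Without the 3 IL10-/- arrays numbered 2 it was 1.21 ± 0.20 (adjusted p = 0.0685).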

How the results depend on the processing

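No called difference of a cell cycle gene reversed in any alternative. Of 119 called differences, 10 were no longer called with the mean of all probe sets and 13 after centring. None was lost with the replicate block or the intensity trend, nor among the 115 still tested with dim genes left out. Without probe sets of shared-probe names 88 were kept and 10 lost, and the rest could not be tested, as 7 genes have such names only. With only the groups compared 78 were kept and 18 lost. Fits without 1 array kept 496 calls and lost 168. Counts of called genes moved by over 1.5 times as follows. With only the groups compared, the LPS count in IL10-/- cells became 11, the IL-10 count in p50-/-IL10-/- cells 0 and the genotype count with LPS 2. The IL-10 count in p50-/-IL10-/- cells became 0 after centring, 2 with dim genes left out and 2 with the mean of all probe sets. The mean of all probe sets made the unstimulated genotype count 5. Leaving out shared-probe names, which left 33 genes to test, made the genotype count with LPS and IL-10 become 6. There Birc5, Cdk2 and Mcm7 could not be tested and the Top2a call was lost. Without the 3 IL10-/- arrays numbered 2, an alternative added after the data were seen, the IL-10 count in IL10-/- cells became 2, that of LPS with IL-10 against no stimulus 9, the genotype count with LPS 3 and the difference of the IL-10 effect 0. By less than 1.5 times, the same alternative moved the LPS count in p50-/-IL10-/- cells to 21 and that of LPS with IL-10 against no stimulus to 22. Averaging arrays of a genotype and number made the average genotype count 11. Beyond fewer arrays, groups or genes in a fit, the cause was not tested.

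Leaving out 1 array gave 11 to 18 genes for LPS in IL10-/- cells, 13 to 15 for LPS in p50-/-IL10-/- cells, 3 to 6 and 0 to 1 for the IL-10 effect, 9 to 14 and 13 to 16 for LPS with IL-10 against no stimulus, 0 to 4 for the unstimulated genotype difference, 1 to 8 under LPS, 5 to 9 when IL-10 was added, 0 and 0 to 1 for the differences of the LPS response and the IL-10 effect, and 16 to 22 for the average genotype difference.

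Replicate numbers were shared by all groups, but the labels give no shared culture. Deviations of same-numbered arrays correlated at 0.40 to 0.59 within IL10-/- cells, -0.49 to 0.28 within p50-/-IL10-/- cells and -0.32 to 0.30 between the genotypes, so same-numbered IL10-/- arrays deviated together and the others did not do so throughout. With 2 numbers and no label of a shared culture, the pairing was not used in the main comparisons. With a replicate block within genotypes, the IL-10 count in IL10-/- cells became 8, and the genotype counts became 11 unstimulated and 13 with LPS, a fit that leaves the difference between cultures of a genotype out of the error. With LPS it also called Aurkb and Birc5 lower in IL10-/- cells (adjusted p = 0.04343 and 0.01707) and Birc5, Bub1 and Cdc20 lower in p50-/-IL10-/- cells (0.00587, 0.008527 and 0.03582).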
